A study of Rattus norvegicus with 3 samples.

Results

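The genes described here encode the proteasome, its activators and the enzymes that attach or remove ubiquitin, read on 3 rat expression arrays. They were chosen by symbol: every gene with a probe set annotated to that gene alone whose symbol begins with Psma, Psmb, Psmc, Psmd, Psme, Ube, Ubac, Uch, Usp or Cul with a number, Nedd4 or Nedd8, or names a ubiquitin or E1 gene, without the immunoproteasome genes Psmb8 and Psmb9. The rule gave 45 of 4736 genes, with 73 probe sets. They comprised 22 proteasome subunits, 3 activators and 20 genes of ubiquitin or Nedd8 attachment and removal. Psmd10, an assembly chaperone, is counted among the 22 by its symbol. No ubiquitin gene, no E1 gene and no Psmb10 was named by a single-symbol probe set in the annotation used, so these are not analysed here.

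The proteasome is the main protease of the cytosol and nucleus. Its core particle is a barrel of alpha rings around beta rings, which hold the cutting sites, and a regulatory cap of ATPases and other subunits binds ubiquitin-tagged proteins, unfolds them and feeds them in. Tagging runs from an activating E1 enzyme through an E2 conjugating enzyme to an E3 ligase that picks the substrate, and deubiquitinases take the tag off. In the rat pineal gland, the proteasome is known for degrading the melatonin-making enzyme Aanat, whose amount sets the rhythm of melatonin.

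The labels describe a time course in Rattus norvegicus with 1 array of total RNA at each of 0.0 h, 0.1 h and 1.0 h. For every sample they name the pineal gland and the adrenal medulla side by side, and they give no genotype, strain, age, number of animals or treatment agent. It could not be settled whether 0.1 h is a true time. With 1 array per label there was no replicate check and no test, so precision is limited by the array number, and the differences below are differences between single arrays.

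Of the pinealocyte markers, Tph1, Asmt, Pdc and Sag were above the intensity floor on all 3 arrays, and Aanat was above it at 0.1 h and 1.0 h. Of 6 adrenal medulla markers on the array, the defining genes Th, Dbh and Slc18a1 were below the floor on all 3 arrays, while Pnmt, Chgb and Ddc were above it. Above the floor on all 3 arrays were 5 of 8 leukocyte markers, 4 of 4 red blood cell markers and 4 of 6 neuronal markers. The leukocyte markers summed to 6990, 8915 and 8854 in the order of the time labels, the red blood cell markers to 9066, 8432 and 10001, and the neuronal markers to 33955, 42344 and 26333. Gap43 made up most of the neuronal sum, with 27433, 32562 and 21318, and Nefh, with 472.2, 886.7 and 1019, ran the other way at 1.0 h. The pinealocyte markers summed to 49391, 56318 and 43065, with Asmt 2.41-fold higher at 0.1 h and Pdc 2.13-fold lower at 1.0 h than at 0.0 h. The adrenal medulla markers summed to 85056, 82312 and 62405, and Pnmt, Chgb and Ddc were all lower at 1.0 h than at 0.0 h. Chgb, with 64522, 61125 and 48336, and Ddc, with 19644, 20198 and 13210, made up most of this sum. With Th, Dbh and Slc18a1 below the floor, the sum cannot be read as adrenal medulla content. In such bulk samples, fewer cells of a type and less RNA per cell cannot be told apart. The 3′ to 5′ signal ratio, an index of RNA breakdown, was 10.4 and 17.8 at 0.0 h and 0.1 h for beta-actin and at least 29.3 at 1.0 h, where the 5′ signal of 173.2 was below the floor. For GAPDH it was 15.3, 18.6 and 14.1, and hexokinase had both ends above the floor at 1.0 h only, with a ratio of 1.0. The part of cell makeup and RNA quality in the results was not tested.

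Promoters are shown for 2 sets: the 4 proteasome subunits that were at least 1.5-fold higher at 0.1 h than at 0.0 h, and the 3 members that were at least 2-fold lower at 0.1 h than on both other arrays. The thresholds of the 2 sets are unlike. The sets also differ in kind of probe set. All 3 of the second set and 0 of the first were read from probe sets with names that begin with rc_, a kind described below. Each line gives the 250 bases before the RefSeq start in the assembly GRCr8, 5′ to 3′ on the gene's strand, from a table that held 44 of the 45 genes (not Psma7). Capitals mark the letters CCAAT (the box bound by NF-Y), TGACGTCA (the cyclic AMP response element) and TGACNNNGC (the core of the antioxidant response element) on either strand, and overlapping matches run together. Psmb2 lies at chr5:144254808-144255057 on the plus strand, Psmb3 at chr10:83193537-83193786 on the plus strand, Psmd2 at chr11:93763389-93763638 on the minus strand and Psmd4 at chr2:185297202-185297451 on the minus strand.
Psmb2: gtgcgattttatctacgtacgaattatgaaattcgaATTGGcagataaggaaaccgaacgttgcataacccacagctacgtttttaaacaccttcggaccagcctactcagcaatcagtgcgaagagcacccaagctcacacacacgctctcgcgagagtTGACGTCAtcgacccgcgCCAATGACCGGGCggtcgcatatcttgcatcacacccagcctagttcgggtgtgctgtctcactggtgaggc
Psmb3: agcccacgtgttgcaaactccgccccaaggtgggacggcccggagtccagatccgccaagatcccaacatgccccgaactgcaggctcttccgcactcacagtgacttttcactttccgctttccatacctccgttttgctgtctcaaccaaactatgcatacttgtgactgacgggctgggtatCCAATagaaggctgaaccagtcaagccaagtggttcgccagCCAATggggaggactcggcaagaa
Psmd2: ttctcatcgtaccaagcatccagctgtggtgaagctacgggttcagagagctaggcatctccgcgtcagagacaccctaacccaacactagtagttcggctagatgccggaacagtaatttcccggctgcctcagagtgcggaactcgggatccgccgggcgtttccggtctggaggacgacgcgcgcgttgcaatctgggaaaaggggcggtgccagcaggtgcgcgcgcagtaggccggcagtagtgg
Psmd4: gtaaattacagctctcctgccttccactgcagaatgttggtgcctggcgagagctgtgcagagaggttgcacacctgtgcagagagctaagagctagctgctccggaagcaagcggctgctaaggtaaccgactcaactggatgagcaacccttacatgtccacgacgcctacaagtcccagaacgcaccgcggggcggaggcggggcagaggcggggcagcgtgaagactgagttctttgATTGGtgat
The stretches of the 3 genes that were lowest at 0.1 h lie at chr15:33135523-33135772 on the minus strand for Nedd8, chr15:105366526-105366775 on the plus strand for Ubac2 and chr14:108706393-108706642 on the plus strand for Psme4.
Nedd8: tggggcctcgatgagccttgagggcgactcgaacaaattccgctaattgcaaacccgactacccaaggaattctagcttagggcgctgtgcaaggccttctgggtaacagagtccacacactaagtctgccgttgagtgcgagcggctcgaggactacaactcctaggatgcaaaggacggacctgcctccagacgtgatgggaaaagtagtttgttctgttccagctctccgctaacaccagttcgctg
Ubac2: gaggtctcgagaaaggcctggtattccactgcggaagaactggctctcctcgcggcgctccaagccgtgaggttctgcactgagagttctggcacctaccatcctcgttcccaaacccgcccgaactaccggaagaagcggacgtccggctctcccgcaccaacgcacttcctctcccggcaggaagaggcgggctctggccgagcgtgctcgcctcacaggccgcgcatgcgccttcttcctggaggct
Psme4: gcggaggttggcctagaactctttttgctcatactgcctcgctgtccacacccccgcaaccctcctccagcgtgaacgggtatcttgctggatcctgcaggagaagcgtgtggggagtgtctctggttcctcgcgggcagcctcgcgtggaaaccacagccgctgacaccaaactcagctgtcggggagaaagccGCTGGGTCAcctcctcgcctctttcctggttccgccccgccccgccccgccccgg

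The motif counts were taken over the full table window of 300 bases, 250 before to 50 after the start, on both strands. CCAAT was found in 12 of 21 proteasome subunit promoters (57.1%) and in 4 of the 23 other members' promoters (17.4%). Among 3872 genes on the array the share was 38.2%, and 37.7% of all 27457 promoters held it. Psmb2 had CCAAT at 214 and 72 bases before the start, Psmb3 at 65 and 24, and Psmd4 at 9 bases before and 10 after it. Psmd2, the subunit with the highest fold difference at 0.1 h, had no CCAAT in this window, and neither did Nedd8, Ubac2 or Psme4.

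The cyclic AMP response element TGACGTCA occurred in the window of 1 proteasome subunit gene, Psmb2, at 90 bases before the start, and in 0 of the 23 other members. It was present in 2.4% of the array genes' promoters and 1.9% of all. TGACNNNGC occurred in 3 of 21 proteasome subunit promoters (Psmb2, Psmb5 and Psmd1) and in 6 of 23 others, among them Psme4 and Ubac2, against 14.2% of the array genes. The GC box GGGCGG, bound by Sp1, was in 71.4% of the proteasome subunit promoters, 78.3% of the other members' and 56.2% of the array genes'. TATAAA was in 14.3%, 8.7% and 11.4% of them. These are counts of letters, and they show no binding.

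A gene was read from its brightest probe set, and all intensities are on the scale on which the probe sets above the floor have equal medians on the 3 arrays. The floor, at the 40th percentile of all values, was an intensity of 262.9. On this scale 41 of the 45 genes (91.1%) lay above the floor on all 3 arrays, against 61.6% of all 4736 genes. All 22 proteasome subunits and all 3 activators were among the 41. The 4 others were E2 enzymes and an E3 ligase. Ube2d2b, a testis form of an E2 enzyme, and Ube2m, the E2 enzyme for Nedd8, were below it on all 3 arrays. Ube2q2 was below it at 0.0 h only, and Ube3a, the E3 ligase of Angelman syndrome, at 1.0 h only.

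**Figure D1:**
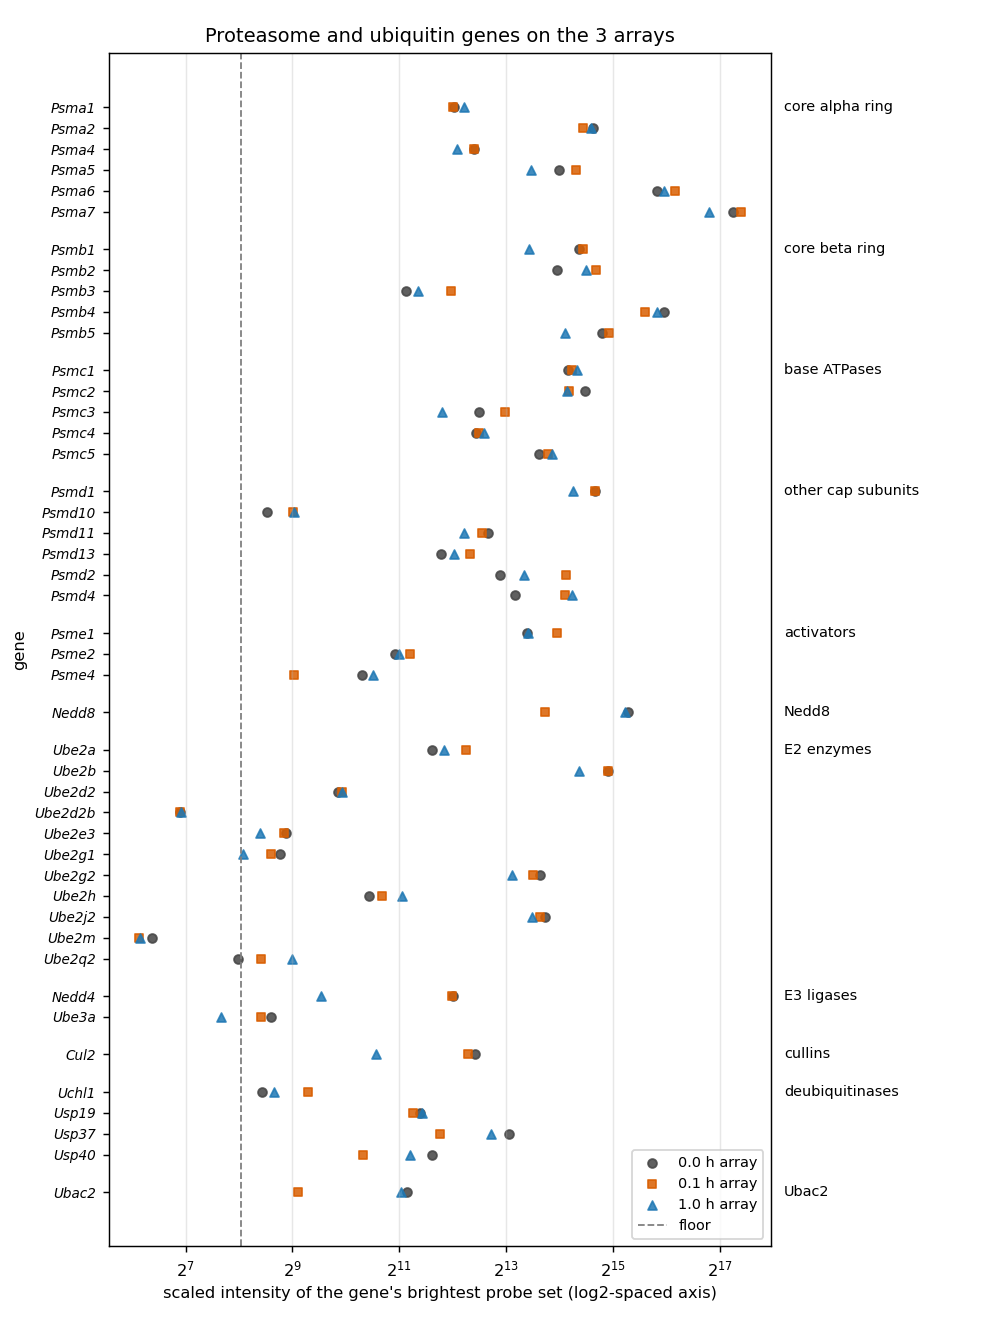
Scaled intensity of the brightest probe set of each of the 45 genes on each array, 1 point per array, on a log2-spaced axis, with the floor of 262.9 as a dashed line. Genes are grouped by role, and levels are to be compared within a gene, not between genes. For most genes the 3 points lie close together, while Nedd8, Ubac2 and Psme4 stand apart at 0.1 h and Nedd4 and Cul2 at 1.0 h.

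Within a gene, the highest array was a median of 1.47-fold above the lowest over the 41 genes, against 1.49-fold over 2917 genes. The 22 proteasome subunits spanned 1.10-fold to 2.36-fold, with a median of 1.39-fold, and 4 of them reached 2-fold. The 16 genes of the ubiquitin system that were above the floor throughout spanned 1.05-fold to 5.49-fold, with a median of 1.58-fold, and 6 of them reached 2-fold. In all, 11 of 41 members (26.8%) had a span of at least 2-fold, against 17.8% of all genes.

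Between 0.1 h and 0.0 h, on this scale, the proteasome subunits were mostly slightly higher at 0.1 h (a direction that turned on the spike-in scale) and a handful of ubiquitin system genes were much lower. Of 42 measured members, 1 was at least 2-fold higher, Psmd2, against 5.68% of all 2994 measured genes. The members at least 2-fold lower were Ubac2, Nedd8, Usp37, Usp40 and the activator Psme4, 5 of 42 against 4.71% of all genes. At 1.5-fold, 6 were higher and 5 lower, against 15.1% and 14.2% of all genes, so that 31 of 42 lay within 1.5-fold. The median log2 difference was 0.03 over the members and 0.00 over all genes.

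Read apart, 15 of the 22 proteasome subunits were higher at 0.1 h and 7 lower, with a median log2 difference of 0.14. At 1.5-fold, 4 were higher (Psmd2, Psmd4, Psmb3 and Psmb2) and 0 lower. Of the 17 measured ubiquitin system genes, 4 were higher and 13 lower, with a median of -0.13. The arrays' spike-in controls had a mean log2 difference of 0.28 between these arrays. When the arrays were scaled to make the spike-ins equal, the median over all genes was -0.28, and that of the proteasome subunits turned to -0.14, with 9 higher and 13 lower. Relative to all genes it stood at 0.14 under both scalings. They differ by a constant shift of each array, which cannot alter this value. On the spike-in scale Psmd2 had a log2 difference of 0.96, so 0 members were 2-fold higher and 5 lower.

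Between 1.0 h and 0.0 h, 2 members were far lower at 1.0 h, and the proteasome subunits were evenly split. Of 41 measured members, 1 was at least 2-fold higher, Psmd4, against 2.34% of all 3029 measured genes. The 2 members at least 2-fold lower, Nedd4 and Cul2, compare with 2.64% of all genes. At 1.5-fold, 2 members were higher and 6 lower, against 10.1% and 11.1%. The median log2 difference was -0.06 over the members, 0.04 over the proteasome subunits (11 higher, 11 lower) and -0.29 over 16 ubiquitin system genes (5 higher, 11 lower), beside 0.01 over all genes. On the spike-in scale the median of all genes was 0.21 and that of the proteasome subunits 0.24.

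Between 1.0 h and 0.1 h, proteasome subunits were mostly lower at 1.0 h on this scale, but not on the spike-in scale, and the genes that had been low at 0.1 h were higher again. These values share their arrays with the other comparisons and are no separate evidence. Among 42 members with both values, 3 stood at least 2-fold higher (Ubac2, Nedd8 and Psme4) and 4 lower (Nedd4, Cul2, Psmc3 and Psmb1), against 4.04% and 5.06% of all 3043 measured genes. At 1.5-fold, 6 were higher and 10 lower, against 14.6% and 15.9%. The proteasome subunits had a median of -0.25, with 8 higher and 14 lower. Probe sets with names ending in _g_at were left out before a second-brightest one was picked. The 5 subunits that still had one to read had a median of 0.26 in it. Of these 22 subunits, 7 were at least 1.5-fold lower and 0 as much higher. With equal spike-ins the all-gene median was 0.47, that of the proteasome subunits 0.22 (15 higher, 7 lower), and the members' split at 2-fold became 6 higher and 2 lower. With the values as deposited the split was 4 and 3. Under both of these scalings the proteasome subunits stood at -0.26 and -0.25 relative to all genes. Both shift each array by a constant, which cannot alter this value beyond rounding and the floor.

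**Figure D2:**
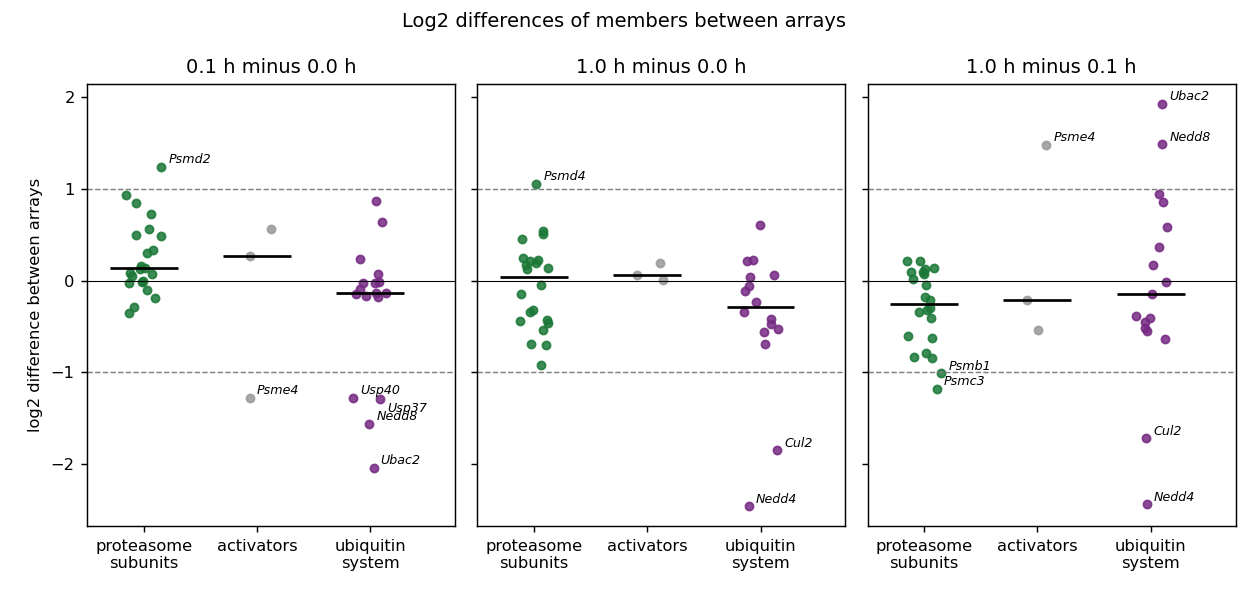
Log2 difference between 2 arrays for every measured member, in 3 panels for the 3 comparisons, with proteasome subunits, activators and ubiquitin system genes apart. Points are genes, black lines are medians, and dashed lines mark 2-fold. The 22 proteasome subunits sit between -0.35 and 1.24 in the first panel and between -1.18 and 0.22 in the last, and the members past 2-fold are named.

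Of the 41 members above the floor throughout, 3 were at least 2-fold lower at 0.1 h than on both other arrays: Nedd8, Ubac2 and Psme4. This is 7.32% of the members, against 2.33% of 2917 genes. Nedd4 and Cul2 were at least 2-fold lower at 1.0 h than on both other arrays, 4.88% of the members against 1.30% of the genes. No member stood 2-fold above both other arrays on any array.

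In the alpha ring, which gates the entrance of the core particle, all 6 measured genes lay within 1.5-fold in both comparisons with 0.0 h. Over all genes 70.7% did so at 0.1 h and 78.8% at 1.0 h. Psma6 read 58134, 73165 and 63459 on the arrays in the order 0.0 h, 0.1 h and 1.0 h, the order kept for all genes, and was highest at 0.1 h by 1.26-fold over 0.0 h. Psma7 had 155826, 171597 and 113400, lowest at 1.0 h, where it was 1.51-fold below 0.1 h. Psma5 had 16381, 20208 and 11288, with the same order of arrays and a 1.79-fold step between 0.1 h and 1.0 h. Psma1, Psma2 and Psma4 stayed within 1.25-fold over the 3 arrays.

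The beta ring holds the cutting sites, and Psmb5 is its chymotrypsin-like subunit. Psmb5 had intensities of 28440, 31217 and 17552, close together at 0.0 h and 0.1 h and 1.62-fold below 0.0 h at 1.0 h. Psmb1 had 21051, 22298 and 11099, again low only at 1.0 h. It was 2.01-fold below 0.1 h, just past 2-fold, where Psma5 at 1.79-fold was the nearest member short of it. Psmb1 fell short of 2-fold with the values as deposited (log2 difference -0.92), with quantile normalisation (-0.90), with cyclic loess (-0.93), with the higher floor (-0.99) and on the spike-in scale (-0.53). Psmb2, with 15800, 26191 and 23052, was lowest at 0.0 h. It was 1.66-fold higher at 0.1 h and 1.46-fold higher at 1.0 h than at 0.0 h. Psmb3 had 2232, 4010 and 2607 and was high only at 0.1 h, by 1.80-fold over 0.0 h. Psmb4 had 63611, 49825 and 57845 and was the only beta subunit gene that was lowest at 0.1 h, by 1.28-fold. Psmb1 to Psmb4 encode beta subunits without a cutting site, and they did not share an order of arrays.

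The ATPases Psmc1 to Psmc5 unfold the substrate in the base of the cap. Psmc1, Psmc4 and Psmc5 stayed within 1.17-fold over the 3 arrays, and Psmc2 within 1.27-fold. Psmc3 had intensities of 5790, 8121 and 3580, with the 1.0 h array lowest. It was 1.40-fold higher at 0.1 h than at 0.0 h and 2.27-fold lower at 1.0 h than at 0.1 h. On the spike-in scale that last log2 difference was -0.71, short of 2-fold.

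Among the other cap subunits, the scaffold and the ubiquitin receptor stood out. Psmd2 (Rpn1), the scaffold that docks ubiquitin carriers, had intensities of 7581, 17911 and 10359. It was 2.36-fold higher at 0.1 h than at 0.0 h, and 1.37-fold higher at 1.0 h. Psmd4 (Rpn10), which binds ubiquitin chains, had 9204, 17594 and 19190, low at 0.0 h and high on both later labels. It was 1.91-fold higher at 0.1 h, the nearest member short of 2-fold there, and 2.08-fold higher at 1.0 h. With the lower floor the latter log2 difference was 0.99, and over the mean of its probe sets it was 0.89. Psmd13 (Rpn9) had 3509, 5158 and 4177, 1.47-fold higher at 0.1 h. Psmd10 (gankyrin), an assembly chaperone of the base, had 367.0, 517.5 and 523.8, and was 1.41-fold and 1.43-fold higher at 0.1 h and 1.0 h than at 0.0 h. Psmd1 (Rpn2) with 26091, 25840 and 19414 and Psmd11 (Rpn6) with 6460, 6018 and 4756 were lowest at 1.0 h, by 1.34-fold and 1.36-fold against 0.0 h.

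Activators open the gate of the core particle without the cap. Psme1 and Psme2 form the PA28 ring that interferon induces, and Psme4 is PA200, a nuclear activator. Psme1 had intensities of 10791, 15858 and 10884, higher at 0.1 h by 1.47-fold and equal within 1.01-fold at 0.0 h and 1.0 h. Its other probe set above the floor, from the same sequence, had 6160, 5788 and 5466 and was not higher at 0.1 h. Psme2 had 1950, 2359 and 2034, higher at 0.1 h by 1.21-fold. Psme4 had 1270, 522.4 and 1453 and was low at 0.1 h only, 2.43-fold below 0.0 h and 2.78-fold below 1.0 h.

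Nedd8, a ubiquitin-like protein whose attachment switches cullin ligases on, had intensities of 40091, 13635 and 38395. The 0.1 h array was 2.94-fold below 0.0 h, and 1.0 h was 2.82-fold above 0.1 h. Its other probe set did not reach the floor, with 44.6, 119.0 and 110.0. The mean of both gave log2 differences of -0.07 and 0.69 in place of -1.56 and 1.49, so the difference rests on 1 probe set.

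Of 8 E2 enzymes measured at both 0.0 h and 0.1 h, 7 lay within 1.5-fold, where 70.7% of all genes did. Ube2a, a Rad6-type E2 enzyme, was the exception with 3124, 4855 and 3645, 1.55-fold higher at 0.1 h. Ube2b, its close relative, had 30922, 30610 and 20973 and was 1.47-fold lower at 1.0 h than at 0.0 h. Ube2g2 and Ube2j2, which serve degradation of proteins from the endoplasmic reticulum, had 12723, 11565 and 8815, and 13499, 12721 and 11473. Both were lowest at 1.0 h, by 1.44-fold and 1.18-fold. Ube2g1 with 435.5, 386.1 and 269.8 was 1.61-fold lower at 1.0 h, where it lay just above the floor. Ube2h, an E2 enzyme abundant in maturing red cells, was highest at 1.0 h, with 1386, 1639 and 2117, by 1.53-fold over 0.0 h. Over the 8 E2 enzymes measured at both, the median log2 difference between 1.0 h and 0.0 h was -0.35. Ube2q2 had 252.9, 340.1 and 511.2, and Ube2d2 and Ube2e3 spanned 1.05-fold and 1.39-fold.

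Nedd4 had the highest fold of the 45 genes, and it and Cul2 were low on the 1.0 h array. Nedd4, a HECT ligase that marks membrane proteins for removal, had intensities of 4094, 4040 and 745.1. It was the same within 1.01-fold at 0.0 h and 0.1 h, and at 1.0 h it was 5.49-fold below 0.0 h and 5.42-fold below 0.1 h. Cul2, the scaffold of the cullin ligase that carries Vhl, had 5479, 5004 and 1520, 3.60-fold below 0.0 h and 3.29-fold below 0.1 h. Each was read from 1 probe set, so no other probe set bears on them. Under the 7 alternatives that gave a value, the log2 difference between 1.0 h and 0.0 h was -2.26 to -2.52 for Nedd4 and -1.65 to -1.92 for Cul2. Among these, the mean over probe sets repeats the main value for a gene with 1 probe set. The 1.0 h array also had the highest beta-actin 3′ to 5′ ratio, at least 29.3, but the lowest GAPDH ratio, 14.1. The pinealocyte, adrenal medulla and neuronal marker sums were lowest there as well, although the markers Asmt, Tph1 and Nefh were higher there than at 0.0 h. The adrenal medulla sum was mostly Chgb and Ddc. The part of RNA quality and cell makeup in the Nedd4 and Cul2 values was not tested. Ube3a, with 386.1, 340.2 and 201.9, had no difference that involves 1.0 h because it was below the floor there.

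Of the deubiquitinases, Usp37 and Usp40 were low at 0.1 h. Usp37, which acts in the cell cycle, had intensities of 8551, 3498 and 6763, 2.44-fold lower at 0.1 h than at 0.0 h. Usp40 had 3131, 1288 and 2340, 2.43-fold lower. At 1.0 h they were 1.26-fold and 1.34-fold below 0.0 h. Usp19, a deubiquitinase held in the membrane of the endoplasmic reticulum, had 2680, 2449 and 2759 and spanned 1.13-fold. Uchl1, a deubiquitinase abundant in neurons and neuroendocrine cells, had 344.3, 629.3 and 403.0 and was highest at 0.1 h, by 1.83-fold over 0.0 h. The summed neuronal and pinealocyte markers were also highest on that array, although Nefl and Tph1 were lower there than at 0.0 h. The part of cell makeup in the Uchl1 value was not tested.

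Ubac2, a membrane protein of the endoplasmic reticulum that takes part in degradation there, had intensities of 2252, 548.3 and 2083. It was 4.11-fold lower at 0.1 h than at 0.0 h and 3.80-fold higher at 1.0 h than at 0.1 h. The arrays at 0.0 h and 1.0 h were within 1.08-fold of each other. Ubac2 thus had the largest fold of the members at 0.1 h, again from 1 probe set.

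The low members at 0.1 h shared a feature of their probe sets. On this array a probe set name that begins with rc_ marks an expressed sequence tag read as its reverse complement, and all 5 members at least 2-fold lower at 0.1 h than at 0.0 h had such names. Of 20 measured members with these names, 5 were 2-fold lower and 0 higher, with a median log2 difference of -0.13. Of the 22 others, 0 were 2-fold lower and 1 higher, with a median of 0.22. Over all genes the same comparison gave 8.34% lower and 3.17% higher among 1355 genes read from rc_ probe sets, with a median of -0.12. Among 1639 others it gave 1.71% lower and 7.75% higher, with a median of 0.11. The part of the kind of probe set in the low values at 0.1 h was not tested.

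The kind of probe set also differed between the proteasome and the ubiquitin genes. The 16 proteasome subunits with other names had a median log2 difference of 0.23, and the 6 with rc_ names -0.06. In the ubiquitin system, 13 measured genes with rc_ names had -0.13 and 4 others 0.03. Between 1.0 h and 0.0 h the all-gene medians were 0.01 for both kinds, with 3.21% of rc_ genes and 2.17% of the others at least 2-fold lower. Nedd4 was read from a probe set of the other kind and Cul2 from an rc_ probe set.

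**Figure D3:**
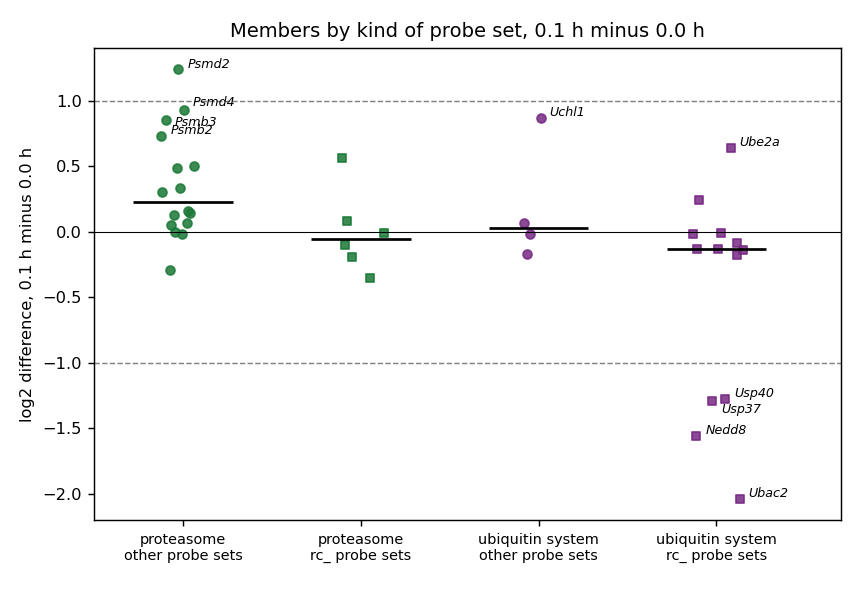
Log2 difference between 0.1 h and 0.0 h of the proteasome subunits and the ubiquitin system genes, split by whether the probe set name begins with rc_ (squares) or not (circles), 1 point per gene, black lines at the medians and dashed lines at 2-fold. All 4 ubiquitin system genes past 2-fold and 0 of the proteasome genes past 1.5-fold are squares.

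Other probe sets of the same gene gave a further reading for 18 of the 45 genes. Probe sets named _at and _g_at from 1 sequence share their target and are not independent. Between 0.1 h and 0.0 h, 12 members had at least 2 measured probe sets, and 7 of the 12 agreed in sign, against 60.9% of all such genes. Between 1.0 h and 0.0 h 4 of 12 did, against 54.5%, and between 1.0 h and 0.1 h 10 of 14, against 58.5%.

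Psmd4 was higher than at 0.0 h in all 3 of its probe sets, with log2 differences of 0.93, 0.62 and 0.71 at 0.1 h and 1.06, 1.00 and 0.62 at 1.0 h. Psmb2 was higher at 0.1 h in both of its own, by 0.73 and 0.46, and Psmb3 by 0.85 and 0.62. Psmb4 was lower at 0.1 h in all 3, with -0.35, -0.68 and -0.85. Usp40 had -1.28 and -1.12 in 2 probe sets of 1 sequence.

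Other members were read differently by their probe sets. Psmd1 had log2 differences at 0.1 h of -0.01, -1.06, -0.41 and 0.38 in its 4 probe sets. At 1.0 h against 0.0 h the same probe sets had -0.43, 0.15, 0.29 and 0.64, so only the brightest was lower. Psmb5 at 1.0 h had -0.70 in its brightest and 0.06 and 0.23 in the others, and Psma5 had -0.54 and 0.65. Ube2b at 1.0 h had -0.56 in its rc_ probe set and 0.27 and 0.23 in the others. Uchl1 was highest at 0.1 h in its brightest probe set and in a second with 216.9, 702.9 and 342.1, and the remaining one was below the floor throughout. The lower 1.0 h values of Psmb5, Psma5, Psmd1 and Ube2b thus depend on which probe set stands for the gene.

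**Figure D4:**
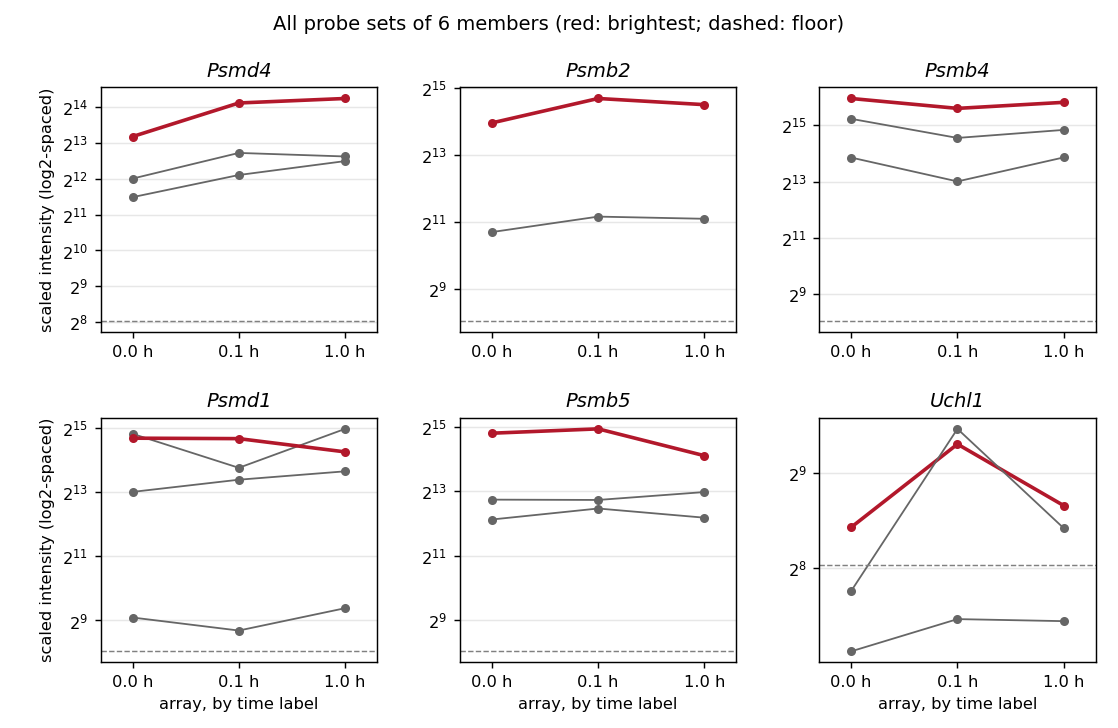
Scaled intensity at 0.0 h, 0.1 h and 1.0 h of every probe set of 6 genes, 1 line per probe set on a log2-spaced axis, with the brightest in red and the floor dashed. The 3 lines of Psmd4 run up from 0.0 h and the 3 of Psmb4 dip at 0.1 h, while those of Psmd1 and Psmb5 cross or part.

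Genes that work with the proteasome and the ligases were read from lists picked by function with earlier results known. Of 5 proteasome partner genes, 0 were 2-fold apart in either comparison with 0.0 h. Pomp, the chaperone that matures the core particle, had 14224, 21455 and 17266 and was 1.51-fold higher at 0.1 h. Txnl1, a thioredoxin bound to the cap, had 7899, 4383 and 9184 and was 2.10-fold higher at 1.0 h than at 0.1 h. Psmb8 and Psmb9, which replace beta subunits in the immunoproteasome, had 1902, 3151 and 3037, and 1156, 1946 and 1405. At 0.1 h they were 1.66-fold and 1.68-fold above 0.0 h. They belong to a list of 12 immunoproteasome and interferon genes, of which 10 were measured. Its medians were 0.74 at 0.1 h and 0.54 at 1.0 h against 0.0 h, beside 0.00 and 0.01 over all genes. In that list 2 genes, Tap1 and Oas1a, were 2-fold higher at 0.1 h and 3, with Irf7, at 1.0 h. The all-gene shares were 5.68% and 2.34%. In the list 0 were 2-fold lower, against 4.71% and 2.64%. At 0.1 h 7 of the 10 were higher than at 0.0 h and 3 lower: B2m, Stat2 and Mx1, with log2 differences of -0.81, -0.83 and -0.50. Tap1 lay near the floor at 0.0 h, with 299.8. The leukocyte markers had medians of 0.60 and 0.43 in the same comparisons, and their part was not tested.

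The partners of the cullin ligases and of the anaphase-promoting complex had 12 of 13 genes measured and 0 of them 2-fold apart in any comparison. Between 0.1 h and 0.0 h 10 of the 12 were lower, with a median of -0.24, where 1503 of all 2994 genes were lower. At 1.0 h 7 were lower and 5 higher than at 0.0 h, with a median of -0.30, where 1483 of all 3029 genes were lower. Of the ligase that Cul2 scaffolds, 3 partner genes in the list were lower at 1.0 h than at 0.0 h, Elob by 1.23-fold, Eloc by 1.57-fold and Vhl by 1.30-fold, beside 3.60-fold for Cul2. They were chosen from the list after their values were seen. Cand1, the exchange factor of cullins, was 1.57-fold lower. Nae1, a subunit of the enzyme that activates Nedd8, had 11039, 8100 and 8897 and was 1.36-fold lower at 0.1 h, beside 2.94-fold for Nedd8.

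Of 8 other ubiquitin ligases measured, 7 were lower at 0.1 h than at 0.0 h, with a median of -0.39, where 1503 of all 2994 genes were lower. Ubr1, the ligase of the N-degron pathway, was 2.25-fold lower. At 1.0 h 5 of the 8 were higher than at 0.0 h, with a median of 0.16. Trim63, a muscle ligase, was at 1.0 h 2.69-fold below 0.0 h and 2.18-fold below 0.1 h. Znrf1 was 2.10-fold higher at 1.0 h than at 0.1 h. Of 3 other deubiquitinases, Atxn3, the Machado-Joseph disease gene, had 305.9, 759.4 and 348.5, 2.48-fold higher at 0.1 h and 2.18-fold lower at 1.0 h than at 0.1 h. Ubr1, Trim63 and Znrf1 were read from rc_ probe sets, and Atxn3 was not.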

How the data were processed

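Total RNA of 3 samples was hybridised to Affymetrix arrays, 1 per sample. The unit deposited is a linear intensity for each probe set. How the authors summarised and background-corrected it is not given in the sources used here. Of 8799 features, 59 were controls, 7006 had 1 gene symbol in the platform annotation, 308 several and 1426 none. Features with 1 symbol were used. All 45 members matched a RefSeq gene table.

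Intensities were taken to log2, and the floor was set with array medians made equal. The arrays were then aligned on the medians of the features above the floor on all 3, which replaces the first scaling and comes to shifts of 0.008, 0.042 and -0.050 from the deposited values. A difference needed both arrays above the floor, and 2-fold counted as apart. Promoters came from RefSeq (GRCr8). Named were members at least 2-fold apart, the 2 brightest of each role, the Psme genes and Uchl1, and up to 4 list genes per direction past 2-fold. Members with probe sets opposed at 1.5-fold or more were also to be named, but no member met this. Other members are printed to complete a role or to show probe sets that differ, chosen after their values were seen. The members, lists and rules were chosen with earlier results of these data known.

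Alternatives were the values as deposited, quantile and cyclic loess normalisation (limma 3.58.1, R 4.3.3), equal spike-ins (9 probe sets), a floor at percentile 20 or 60, each gene's mean over probe sets, the second-brightest probe set and a fold of 1.5. The second-brightest was picked after probe sets with names ending in _g_at were left out, so it is not always the second of all probe sets of a gene. Python 3.11.15, pandas 2.3.3 and numpy 2.4.6 were used.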

Additional observations from a re-analysis of the deposited data

How the results depend on the processing

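Of 96 medians and counts recomputed under the alternatives, 73 stayed within 0.1 log2 units or 1.5 times and 23 moved. Of the 48 medians among them, 13 changed sign, 5 with equal spike-ins and 2 with second-brightest probe sets. With equal spike-ins, between 0.1 h and 0.0 h the members' median became -0.25, the count 2-fold higher 0 and the proteasome median -0.14. Between 1.0 h and 0.0 h the medians became 0.13 and 0.24 for members and proteasome subunits. Between 1.0 h and 0.1 h they became 0.26 and 0.22, with 6 members 2-fold higher and 2 lower. With a floor at percentile 60, 3 members were 2-fold lower at 0.1 h than at 0.0 h and 1 was higher at 1.0 h than at 0.1 h. Ubac2 and Psme4, with 548.3 and 522.4 at 0.1 h, gave no value in these comparisons at that floor. With a floor at percentile 20, and with the mean of all probe sets, 0 were 2-fold higher at 1.0 h than at 0.0 h. Cyclic loess gave a members' median of -0.10 between 1.0 h and 0.1 h. Second-brightest probe sets, picked without those named _g_at, left 6, 6 and 7 members. For 0.1 h minus 0.0 h they gave a median of 0.36, 0 higher, 0 lower and a proteasome median of 0.34. For 1.0 h minus 0.0 h they gave 0.16 and 0 lower, and for 1.0 h minus 0.1 h 0 higher, 1 lower and a proteasome median of 0.26. The higher floor and the second-brightest reading leave fewer genes, and the cause of the other moves was not tested. At 1.5-fold, 6, 2 and 6 members were higher and 5, 6 and 10 lower in the 3 comparisons. Of 109 single-member values past 2-fold, 98 stayed past it, 11 did not and 0 changed sign. These members were picked for being past 2-fold in these data. For a gene with 1 probe set the mean over probe sets repeats the main value, and some settings only shift whole arrays. The count is therefore no independent support. Leaving out a replicate was not run, and no paired analysis was possible because each label has 1 array. Signal over background limits Ube2g1, Uchl1, Psmd10 and Ube2q2, which lie near the floor. It also limits the 0.1 h values of Ubac2 and Psme4.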

Other observations

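A list of genes from other routes of protein breakdown, mostly lysosomal and calcium-dependent proteases, had 14 of 15 genes measured. It also held genes of the lysosomal membrane (Lamp1 and Lamp2), the calpain inhibitor Cast and the cytosolic peptidases Tpp2 and Npepps. The median log2 difference over the list was -0.17 between 0.1 h and 0.0 h, 0.01 between 1.0 h and 0.0 h and 0.28 between 1.0 h and 0.1 h. Capns1, the small subunit of calpain, had intensities of 27609, 35466 and 16422 and was 2.16-fold lower at 1.0 h than at 0.1 h. Capn1, a large subunit, had 1600, 2272 and 1199, with the same order of arrays and a 1.89-fold step. The cathepsin gene Ctss, a protease of macrophages and other antigen-presenting cells, had 9560, 9903 and 15541, 1.63-fold higher at 1.0 h than at 0.0 h. Ctsb, Ctsc and Ctsh were 1.59-fold, 1.61-fold and 1.52-fold higher at 1.0 h than at 0.1 h. Capn1, Ctss, Ctsb, Ctsc and Ctsh were chosen after their values were seen.

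Among other ubiquitin-like proteins and their ligases, 4 of 5 genes were measured and 0 were 2-fold apart. Pias2, a SUMO ligase, had 8979, 15612 and 12310, 1.74-fold higher at 0.1 h than at 0.0 h. Its relative Pias3 had 8593, 6225 and 4329 and was 1.98-fold lower at 1.0 h than at 0.0 h. Gabarap and Map1lc3a, which coat autophagosomes, were 1.32-fold and 1.45-fold lower at 0.1 h. The autophagy receptor gene Sqstm1 was above the floor at 1.0 h only, with 244.0, 158.3 and 408.6. These genes too were chosen after their values were seen.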
